A study of Mus musculus with 16 samples.

Results

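The genes described here are 9 genes grouped as markers of ependymal cells and their motile cilia, 8 of the cilium or its regulation and Mia. Ependymal cells form the epithelium that lines the central canal of the spinal cord. Foxj1, Rsph1, Rsph4a, Ccdc153, Ak7, Hydin, Spag17, Tekt1 and Mia were taken by symbol from a given list, and all 9 were found among the 18167 genes of the RNA-Seq table. The cells carry motile cilia that stir cerebrospinal fluid. Each cilium is built on an axoneme, a ring of doublet microtubules around a central pair, bent by dynein motors that are steered by radial spokes, the central apparatus and the nexin links. The transcription factor Foxj1 switches on most of the genes of this machine, so their transcripts mark cells with motile cilia in nervous tissue. Mia, which codes for a small secreted protein first known from melanoma and cartilage, is no part of the cilium.

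Spinal cords of 16 male mice were profiled in a transgenic model of amyotrophic lateral sclerosis. The mutant mice (C57BL/6N-Tg(Prnp-PFN1*G118V)838Kiaei) carry human profilin 1 with the G118V substitution, and the control mice (C57BL/6N-Tg(Prnp-PFN1)850Kiaei) carry wild-type human profilin 1. Both transgenes were driven by a prion protein gene vector, so no group lacked a transgene, and each genotype is 1 transgenic line. The 3 young mutant mice (MY) and 3 young wild-type mice (WY) were 50 days old and labelled presymptomatic. The 5 old mutant mice (MO) were at end stage, at 198, 190, 245, 224 and 175 days for MO1 to MO5, and the 5 old wild-type mice (WO) were 190 days old (WO1 to WO3) or 294 days old (WO4 and WO5). Libraries were made in 2 batches: WO4, WO5, MO4 and MO5 formed batch 2, and the other 12 mice formed batch 1. Values are log2(1 + FPKM), a length-scaled abundance on a log scale, adjusted by the authors for batch. The deposited table holds no read counts; the paper lists sequenced fragments for each mouse, which were not used here.

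Transcripts outside the list set some mice apart from their groups. MO5, labelled male, had Xist at 3.21 and Ddx3y at 1.95 on the log2(1 + FPKM) scale, whereas in the other mice Xist was at most 0.37 and Ddx3y at least 4.06. WO3 had the choroid plexus transcript Ttr at 4.42, against 0.67 or less in the 15 others. The summed FPKM of the 8 choroid plexus genes in the table, out of 9 listed, was 3.5, 4.44, 25.6, 5.13 and 4.04 in WO1 to WO5, 3.49 to 4.63 in WY mice, 4.09 to 4.99 in MY mice and 4.15 to 4.55 in MO mice. Prlr was the most abundant of the 8 on average, and besides Ttr, Kl (1.07) and Clic6 (1.07) were at their highest in WO3. In WO4, the summed FPKM of the 5 oligodendrocyte genes was 4489, against 8814 to 23150 in the other WO mice. Mbp, the most abundant of them, was at 5.36 in WO4 and at 12.16 or more in the 15 others, while Mog was at 7.49 in WO4 and from 7.08 to 7.51 in the other WO mice. In MO1, the summed FPKM of the 4 red blood cell genes in the table, with Hba-a1 the most abundant, was 11.7, against 43.3 to 64.4 in the other MO mice. Choroid plexus epithelium also bears cilia, which concerns WO3, and MO5 stood apart by Xist and Ddx3y. The fits were therefore repeated without WO3 and MO5.

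The members spanned a wide range of abundance. Mean log2(1 + FPKM) over the 16 mice was 3.78 for Foxj1, 3.04 for Mia, 2.30 for Ccdc153 and 2.27 for Rsph1. It was 1.44 for Ak7, 1.41 for Tekt1, 1.16 for Rsph4a, 0.32 for Hydin and 0.18 for Spag17. Ccdc153 and Rsph1, and likewise Ak7 and Tekt1, differed by less than their within-group SD and share a place in this order. Hydin and Spag17, the longest of the genes, had mean FPKM of only 0.25 and 0.132, where the added 1 compresses any difference. 7 of the 9 had a mean of at least 1 on the log scale.

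In short, Mia rose in end-stage mutant cords, and no axonemal or regulator member passed both thresholds in any comparison. Genes were called different by limma at an FDR of at most 0.05 over all 18167 genes together with a fold change of at least 1.5, and every difference is the second group minus the first on the log2(1 + FPKM) scale, which understates the change of genes with low FPKM. Between MY and MO mice, 1 of 9 members was called (Mia, higher), where 4.9% of all genes were. Between WO and MO mice, 1 of 9 was called (again Mia, higher), beside 4.6% of all genes. With 1 mouse left out, the call of Mia was lost in 7 of 8 fits from MY to MO and in 5 of 10 from WO to MO. No member was called between WY and WO mice, WY and MY mice or in the difference of age effects, where 0.253%, 0.0055% and 5.61% of all genes were; at an unadjusted p under 0.05 the limma counts were 0, 0 and 1 of 9, where 13.5%, 7.16% and 31.1% of all genes were. From MY to MO and from WO to MO, 36.7% and 38.5% of all genes had an unadjusted p under 0.05, the background for the list counts given with each role. The median difference over the 9 members was -0.024 from MY to MO and -0.019 from WO to MO, against 0.0047 and 0.00035 over all genes. With 1 mouse left out, these medians ranged from -0.053 to 0.020 and from -0.054 to 0.027, the upper ends without MY3 and without WO4, and in batch 1 only they were 0.013 and 0.12. From WY to WO the members' differences ran from -0.31 (Mia) to 0.16 (Tekt1), and from WY to MY from -0.34 (Rsph1) to 0.16 (Foxj1). Without WY3, the value of Mia from WY to WO was -0.092 and that of Rsph1 from WY to MY -0.21. Without WO3, Mia was -0.48 from WY to WO. Tekt1 from WY to WO was 0.085 without WO3 and 0.25 without WY3. At the FDR alone, 2 of 9 passed between MY and MO mice (25.6% of all genes) and 1 of 9 between WO and MO mice (27.9%). The groups did not overlap for 1 of 9 members between MY and MO mice (31.6% of all genes) and for 0 of 9 between WO and MO mice (19.9%). With 9 genes, 1 call more or less makes up the whole of these counts. In whole cord RNA, a change in the number of ependymal cells and a change in the RNA of each cell cannot be told apart.

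**Figure D1:**
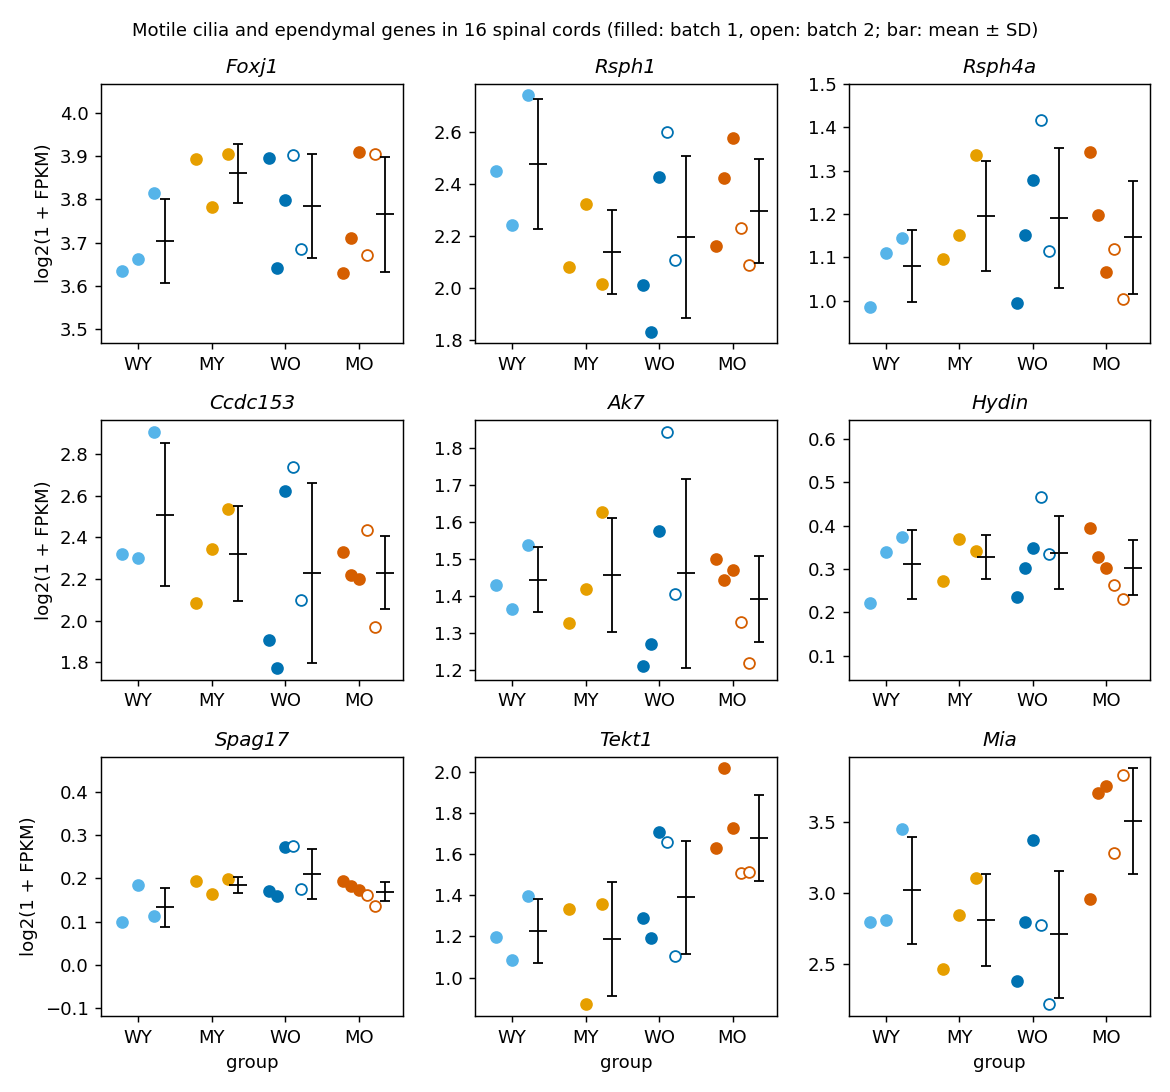
Levels of the 9 members in each mouse: the vertical axis is log2(1 + FPKM), each point is 1 mouse (filled for batch 1, open for batch 2), and the bar beside each group is its mean ± SD (n = 3 for WY and MY, n = 5 for WO and MO). Vertical axes do not start at 0; the MY and MO points of Tekt1 do not overlap, while all other members overlap between those groups.

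Foxj1, the regulator, was at 3.63, 3.66 and 3.81 in WY mice, 3.89, 3.78 and 3.90 in MY mice, 3.90, 3.64, 3.80, 3.90 and 3.69 in WO mice and 3.63, 3.71, 3.91, 3.67 and 3.90 in MO mice. MO1 and WY1 were lowest and MO3 and MY3 highest, and the groups overlapped. Group means were 3.7 ± 0.10 (SD, n = 3) in WY, 3.86 ± 0.068 (SD, n = 3) in MY, 3.78 ± 0.12 (SD, n = 5) in WO and 3.77 ± 0.13 (SD, n = 5) in MO mice. The difference was -0.095 (95% confidence interval -0.27 to 0.082) from MY to MO and -0.019 (95% confidence interval -0.18 to 0.15) from WO to MO, so a change as large as the 1.5-fold threshold lay outside both intervals. Among the other 7 regulator genes in the table, E2f5 (mean 3.25), Rfx3 (1.95) and Rfx2 (1.36) were the most abundant, the Rfx factors being partners of Foxj1 at cilia genes. By limma, 0 of the 8 regulator genes passed both thresholds in any comparison; 2 had an unadjusted p under 0.05 from MY to MO and 4 from WO to MO.

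Rsph1 and Rsph4a code for proteins of the radial spoke head, which passes signals from the central apparatus to the dynein arms. Rsph1 was at 2.45, 2.24 and 2.74 in WY mice, 2.08, 2.32 and 2.02 in MY mice, 2.01, 1.83, 2.43, 2.60 and 2.11 in WO mice and 2.16, 2.42, 2.58, 2.23 and 2.09 in MO mice. WY3, WO4 and MO3 were highest and WO2 and WO1 lowest, so the extremes of both directions lay among wild-type mice. Its difference was 0.16 (95% confidence interval -0.12 to 0.43) from MY to MO, 0.10 (95% confidence interval -0.23 to 0.42) from WO to MO and -0.34 (95% confidence interval -0.68 to 0.0042) from WY to MY. With 1 mouse left out, Rsph1 ranged from 0.086 (without MO3) to 0.25 (without MY2) from MY to MO, and from 0.0089 (without WO2) to 0.20 (without WO4) from WO to MO. Rsph4a was at 0.98, 1.11 and 1.14 in WY mice, 1.10, 1.15 and 1.34 in MY mice, 0.99, 1.15, 1.28, 1.42 and 1.12 in WO mice and 1.34, 1.2, 1.07, 1.12 and 1.00 in MO mice. It was highest in WO4, MO1 and MY3 and lowest in WY1 and WO1, and all 4 groups overlapped. The difference was -0.049 (95% confidence interval -0.24 to 0.15) from MY to MO and -0.046 (95% confidence interval -0.23 to 0.14) from WO to MO. The radial spoke list had 12 genes in the table, and by limma 0 passed both thresholds, with an unadjusted p under 0.05 for 3 from MY to MO and 2 from WO to MO. Nme5 (2.99), Rsph9 (2.96) and Rsph3a (1.34) had the highest means beside the members.

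Ccdc153 belongs to the nexin-dynein regulatory complex, the link between neighbouring doublets. It was at 2.32, 2.30 and 2.91 in WY mice, 2.08, 2.34 and 2.54 in MY mice, 1.90, 1.77, 2.62, 2.74 and 2.10 in WO mice and 2.33, 2.22, 2.20, 2.44 and 1.97 in MO mice. The highest mice were WY3, WO4 and WO3 and the lowest WO2 and WO1, so the WO group held both ends of the scale except for WY3. Ccdc153 differed by -0.090 (95% confidence interval -0.37 to 0.19) from MY to MO and by 0.0034 (95% confidence interval -0.40 to 0.41) from WO to MO; the latter turned to -0.073 with quantile normalization. By limma, 0 of the 13 genes of its list passed both thresholds, with an unadjusted p under 0.05 for 2 from MY to MO and 1 from WO to MO. The most abundant were Gas8 (3.61), Ccdc39 (3.00) and Iqcg (2.87).

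Hydin and Spag17 are large proteins of the central apparatus. Hydin was at 0.22, 0.34 and 0.37 in WY mice, 0.27, 0.37 and 0.34 in MY mice, 0.23, 0.30, 0.35, 0.47 and 0.33 in WO mice and 0.39, 0.33, 0.30, 0.26 and 0.23 in MO mice. WO4 was highest and WY1, MO5 and WO1 lowest. Spag17 was at 0.10, 0.18 and 0.11 in WY mice, 0.19, 0.16 and 0.20 in MY mice, 0.17, 0.16, 0.27, 0.27 and 0.17 in WO mice and 0.19, 0.18, 0.17, 0.16 and 0.14 in MO mice. WO4 and WO3 stood above the rest and WY1 and WY3 below. At these low levels the differences from MY to MO were -0.024 (95% confidence interval -0.13 to 0.085) for Hydin and -0.016 (95% confidence interval -0.092 to 0.061) for Spag17. From WO to MO they were -0.034 (95% confidence interval -0.14 to 0.073) and -0.041 (95% confidence interval -0.12 to 0.037). With 1 mouse left out, Hydin ranged from -0.053 to -0.0031 from MY to MO and from -0.060 to -0.0018 from WO to MO. Spag17 ranged from -0.026 to -0.0072 from MY to MO and from -0.054 to -0.025 from WO to MO. By limma, 0 of the 12 central apparatus genes passed both thresholds, with an unadjusted p under 0.05 for 2 from MY to MO and 3 from WO to MO. Cfap69 (2.76), Cfap74 (2.39) and Spef1 (1.90) had the highest means beside the members.

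Ak7 is an adenylate kinase of motile cilia, which helps to supply the dynein motors with ATP. It was at 1.43, 1.37 and 1.54 in WY mice, 1.33, 1.42 and 1.63 in MY mice, 1.21, 1.27, 1.58, 1.84 and 1.41 in WO mice and 1.5, 1.44, 1.47, 1.33 and 1.22 in MO mice. WO4 was highest, followed by MY3 and WO3, and WO1, MO5 and WO2 were lowest. The difference was -0.064 (95% confidence interval -0.26 to 0.13) from MY to MO and -0.068 (95% confidence interval -0.32 to 0.18) from WO to MO. Of the other adenylate kinases listed, Ak8 was in the table with a mean of 0.79 and differed by 0.11 (SE 0.045, limma FDR = 0.107) from MY to MO and by -0.18 (SE 0.062, limma FDR = 0.0571) from WO to MO, neither called.

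Tekt1 codes for a tektin, a filament protein inside the doublet microtubules. It was at 1.2, 1.09 and 1.40 in WY mice, 1.33, 0.87 and 1.36 in MY mice, 1.29, 1.19, 1.71, 1.66 and 1.11 in WO mice and 1.63, 2.02, 1.73, 1.51 and 1.52 in MO mice. MO2 was the highest of the 16 mice and MY2 the lowest, and all 5 MO mice lay above all 3 MY mice, as the values of 31.6% of all genes did in either direction. The difference from MY to MO was 0.49 (SE 0.15, 95% confidence interval 0.16 to 0.83, limma FDR = 0.0395), past the FDR threshold as were 25.6% of all genes, but short of 1.5-fold. It was 0.53 without MO5, and 0.33 without MY2, where the FDR was 0.139. Tekt1 passed both thresholds with a pseudocount of 0.1 (0.76) and in batch 1 only (0.61), with a limma FDR between 0.0288 and 0.139 over the 16 alternatives. From WO to MO the difference was 0.29 (SE 0.14, 95% confidence interval -0.015 to 0.59, limma FDR = 0.149), with the groups overlapping through WO3 and WO4. It was 0.40 in batch 1 and 0.13 in batch 2. The change with age did not pass a test of its difference between genotypes, at 0.33 (SE 0.23, 95% confidence interval -0.15 to 0.81, limma FDR = 0.358). With 1 mouse left out, that value ranged from 0.17 (without MY2) to 0.42 (without MY3).

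Tekt1 belongs to a list of 21 microtubule inner and ribbon proteins, all in the table. By limma, 0 passed both thresholds in a comparison of 2 groups (5 had an unadjusted p under 0.05 from MY to MO and 3 from WO to MO); the list medians were 0.087 and 0.083. In the difference of age effects, 2 of the 21 were called, Cfap126 and Meig1, where 5.61% of all genes were. Cfap126, a microtubule inner protein, was at 1.96, 2.00 and 2.36 in WY mice, 1.56, 2.02 and 2.24 in MY mice, 1.92, 1.81, 2.16, 2.10 and 1.93 in WO mice and 2.38, 2.47, 2.72, 2.40 and 2.42 in MO mice. All 5 MO mice lay above every other mouse, and MY1 was lowest. Its difference was 0.54 (SE 0.14, limma FDR = 0.0258) from MY to MO, 0.50 (SE 0.081, limma FDR = 0.00119) from WO to MO and 0.66 (SE 0.19, limma FDR = 0.0276) between the age effects; the last was lost without MY1 (0.48), without WY3 (0.54) and in batch 1 only (0.73), with FDR from 0.00421 to 0.0798 over the 23 alternatives. Meig1 was at 1.48, 1.61 and 1.92 in WY mice, 1.28, 1.28 and 0.62 in MY mice, 1.32, 1.58, 1.65, 1.26 and 1.16 in WO mice and 1.21, 1.49, 1.67, 1.60 and 1.63 in MO mice. MY3 was far the lowest, and the 3 MY mice lay below the 3 WY mice. WY and MY mice did not overlap, in either direction, for 13 of the 100 genes of the axonemal and regulator lists. That share was not computed over all genes. The difference between the age effects of Meig1 was 0.74 (SE 0.23, limma FDR = 0.0398). Its call was lost in 13 of 23 alternatives, among them leaving out MY3 (0.51). Cfap20 (4.61) and Nme7 (2.54) were among the most abundant genes of the list.

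Dynein motors and the proteins that assemble them gave no calls either. By limma, 0 of 18 dynein arm genes and 0 of 9 assembly genes passed both thresholds in any comparison, with an unadjusted p under 0.05 for 3 and 2 from MY to MO and for 2 and 1 from WO to MO. Wdr78 (1.93), Ccdc114 (1.69) and Dnaic1 (1.58) were the most abundant arm genes, and 1110004E09Rik (4.29), Spag1 (3.16) and Dnaaf2 (1.66) the most abundant assembly genes. The same held for 5 genes of centriole amplification, the step that makes the basal bodies of multiciliated cells, with 1 and 0 at an unadjusted p under 0.05; the most abundant were Plk4 (1.44), Ccdc78 (0.41) and Ccno (0.33). Over all axonemal and regulator lists together, 100 of 108 symbols were in the table, the 8 members other than Mia among them. In the difference of age effects, 2 of the 100 (2%) were called, where 5.61% of all genes were. With 1 mouse left out, that count ranged from 0 (without WY3) to 3 (without MY2). It was 1 with quantile normalization, in batch 1 only and with the replicate block. By limma, 0 of the 100 were called in each comparison of 2 groups; at an unadjusted p under 0.05 there were 21 (MY to MO), 17 (WO to MO), 5 (WY to WO) and 7 (WY to MY), where 36.7%, 38.5%, 13.5% and 7.16% of all genes did. With a pseudocount of 0.1, 3, 2 and 1 were called in the first 3 of these; from MY to MO, 1 was called in batch 1 only and 1 without MY3. Their median difference was 0.024 from MY to MO and -0.0085 from WO to MO. The 22 intraflagellar transport genes, which also serve primary cilia of other cells, had medians of -0.076 and -0.057. By limma, 0 were called, with 9 and 8 of 22 at an unadjusted p under 0.05 (36.7% and 38.5% of all genes). In the difference of age effects their median was -0.15 and 0 were called. There, 12 of 22 had an unadjusted limma p under 0.05, where 31.1% of all genes did.

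Mia had the largest difference of the 9 members in both comparisons with MO mice. It was at 2.80, 2.81 and 3.45 in WY mice, 2.47, 2.85 and 3.11 in MY mice, 2.38, 2.80, 3.37, 2.78 and 2.22 in WO mice and 2.96, 3.7, 3.75, 3.28 and 3.83 in MO mice. MO5, MO3 and MO2 were the highest of the 16 mice, whereas MO1 lay below WY3, WO3 and MY3, so MO overlapped every other group. Group means were 3.02 ± 0.38 (SD, n = 3) in WY, 2.81 ± 0.32 (SD, n = 3) in MY, 2.71 ± 0.45 (SD, n = 5) in WO and 3.51 ± 0.37 (SD, n = 5) in MO mice. From WO to MO the difference was 0.79 (SE 0.23, 95% confidence interval 0.29 to 1.30, limma FDR = 0.0251), or between 1.22-fold and 2.47-fold at the bounds, and it was 0.62 within batch 1 and 1.06 within batch 2. From MY to MO it was 0.70 (SE 0.22, 95% confidence interval 0.19 to 1.2, limma FDR = 0.04995), at the very edge of the FDR threshold, and 0.66 within batch 1; batch 2 held no young mice.

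Both calls of Mia were lost when some single mice were left out. From WO to MO the call was lost without MO2 (0.75), MO3 (0.73), MO5 (0.71), WO1 (0.71) or WO5 (0.67) and in batch 1 alone (0.62), and held in the other 13 of 19 alternatives, with a limma FDR between 0.00672 and 0.233. It was 0.96 without WO3 and 0.88 without both WO3 and MO5, an alternative chosen after seeing the data, where it was still called. From MY to MO the call was lost in 12 of 16 alternatives, with FDR between 0.0102 and 0.195, among them leaving out MO2 (0.65), MO3 (0.63), MO4 (0.75), MO5 (0.61), MY1 (0.53), MY2 (0.72) or MY3 (0.85). The sign of the difference stayed positive in each of these. The difference between the age effects was 1.01 (SE 0.37, 95% confidence interval 0.21 to 1.80, limma FDR = 0.076), not called, and passed both thresholds in 4 of 23 alternatives: with the replicate number as a block (1.01, where the FDR was 0.0227) and leaving out WO3 (1.17), MO1 (1.14) or both WO3 and MO5 (1.09); its FDR lay between 0.0227 and 0.238 over all 23. Mia shares 410 exon bases with Gm21983, an annotated protein-coding gene on the same strand that is not in the table, and reads of the pair could not be separated here.

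**Figure D2:**
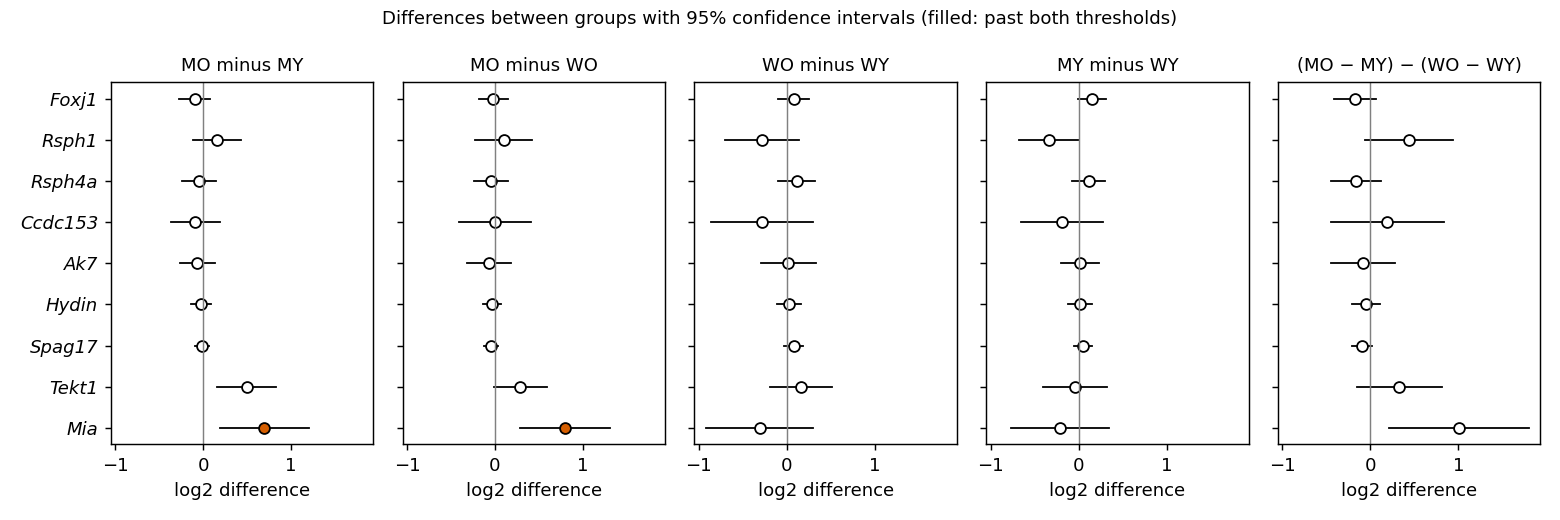
Differences between groups for each member: the horizontal axis is the log2 difference of log2(1 + FPKM), points are limma estimates, lines their 95% confidence intervals, and filled points passed both thresholds. Mia was filled in MO minus MY (0.70) and MO minus WO (0.79) and nowhere else.

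Other genes that are high in ependymal cells were compared in the same way. Of the 10 in the list, Mia included, 4 were called higher in MO than in MY mice and 6 in MO than in WO mice, where 4.9% and 4.6% of all genes were called. Vim, an intermediate filament protein of ependymal cells, astrocytes and tanycytes, differed by 2.59 (SE 0.16, limma FDR = 1.46e-05) from WO to MO, and Nes, its partner in progenitors, by 0.94 (SE 0.10, limma FDR = 0.000111). Nnat differed by 1.04 (SE 0.085, limma FDR = 2.34e-05), Sox9 by 0.69 (SE 0.066, limma FDR = 5.15e-05) and Rarres2, which codes for chemerin, by 0.63 (SE 0.13, limma FDR = 0.00439). From MY to MO the values were 2.49 for Vim, 0.80 for Nes and 0.77 for Nnat, all called, and 0.47 for Sox9 and 0.56 for Rarres2, which passed the FDR alone. The call of Rarres2 from WO to MO was lost in batch 1 alone (0.48), without MO5 (0.58) and without WO5 (0.57). Prom1 was lower from MY to MO, at -0.45 (SE 0.12, limma FDR = 0.0295), past the FDR alone, and differed by -0.25 (SE 0.10, limma FDR = 0.0871) from WO to MO. Tmem212, a membrane protein typical of ciliated ependyma, was not called, at -0.34 (95% confidence interval -0.71 to 0.027) from WO to MO. Vim, Nes, Sox2, Sox9 and Cd24a are also made by other cells of the cord. Which cells made the transcripts of Nnat, Rarres2 and Prom1 was not tested.

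Markers of other cells changed over the same groups, in which 4.6% (WO to MO) and 4.9% (MY to MO) of all genes were called. Of 6 astrocyte genes, 3 were called higher from WO to MO (Gfap 1.60, Aqp4 0.83, Aldh1l1 0.69) and 2 from MY to MO (Gfap 1.26, Aldh1l1 0.62), and their summed FPKM was 3156 to 4148 in MO, 1643 to 1849 in WO, 1935 to 2008 in MY and 2051 to 2258 in WY mice, with Gfap the most abundant. Of 6 microglial genes, 4 were called higher from WO to MO (Cx3cr1 1.14, Csf1r 1.28, Aif1 1.75, Itgam 0.99) and 5 from MY to MO, Tmem119 (0.60) being the addition. Among the genes called lower in MO mice were Nefl of the neuronal list (-0.75 from WO, -0.74 from MY) and, from MY, Mog of the oligodendrocyte list (-0.93). From WY to WO mice, Aqp4 (-0.65) and Mog (-0.77) were called lower. Of these calls, that of Aldh1l1 from MY to MO was lost without MO1 (0.56). That of Tmem119 was lost without MO2 (0.54), MO5 (0.56) or MY3 (0.58). That of Aqp4 from WY to WO was lost without any of WO2 (-0.66), WO3 (-0.68), WO5 (-0.62), WY1 (-0.71), WY2 (-0.61) or WY3 (-0.64) and with a pseudocount of 0.1 (-0.66), quantile normalization (-0.63) or the replicate block (-0.68), and that of Mog without WO1 (-0.74), WO3 (-0.76), WY1 (-0.75), WY2 (-0.81) or WY3 (-0.75). The part of such shifts in the difference of Mia was not tested.

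Cartilage is a classical source of Mia. Genes listed for cartilage are named by that list, and which cells of the cord made their transcripts was not tested. Of 9 cartilage genes, limma called 0 higher in any comparison (6 had an unadjusted p under 0.05 from MY to MO and 5 from WO to MO, in either direction) and Acan lower from WO to MO, at -0.60 (SE 0.053, limma FDR = 3.18e-05), a call lost without MO1 (-0.57) or WO5 (-0.58). Their summed FPKM was 15.9 to 19.4 in MO, 20.5 to 27.2 in WO, 23.3 to 26.1 in MY and 27.1 to 28.7 in WY mice; Col11a2 was the most abundant, and Col2a1, the main collagen of cartilage, ranged from 0.65 to 1.27 on the log2(1 + FPKM) scale over the 16 mice. By limma, 0 of the listed genes of Schwann cells (5 in the table), meninges (6), red blood cells (4), skeletal muscle (5) and choroid plexus (8) were called in any comparison. At an unadjusted p under 0.05 there were 1, 0, 0, 0 and 2 of them from MY to MO and 0, 0, 1, 2 and 3 from WO to MO.

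The members differed in how much they varied between mice of the same group. The SD was largest in the WO group for 7 of the 9 members, for Ccdc153 0.43 in WO against 0.17 in MO mice (n = 5 each). Pooled over the groups, the SD was 0.39 for Mia, 0.32 for Ccdc153, 0.25 for Rsph1 and 0.24 for Tekt1, above that of 98.9%, 98%, 95.1% and 94.6% of all genes. It was lower for Ak7 (0.18), Rsph4a (0.14), Foxj1 (0.11), Hydin (0.072) and Spag17 (0.041), above that of 87.1%, 74.3%, 61.6%, 24.2% and 5.72% of all genes. WO4 was among the 5 highest mice for 8 of the 8 axonemal and regulator members and WO3 for 7 of 8, whereas WO2 was among the 5 lowest for 6 of 8, MO5 for 6 of 8, and WO1 and WY1 for 5 of 8 each. The mean z-score of the 8 over all mice was 1.70 in WO4, 0.89 in WO3, 0.52 in WY3 and 0.51 in MY3 at the upper end, and -0.89 in WO2, -0.72 in WO1, -0.72 in WY1 and -0.64 in MO5 at the lower end. WO3 is the mouse with high Ttr, and WO4, with Ttr at 0.30, the mouse with low Mbp. What these have to do with the levels of the members in WO3 and WO4 was not tested.

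**Figure D3:**
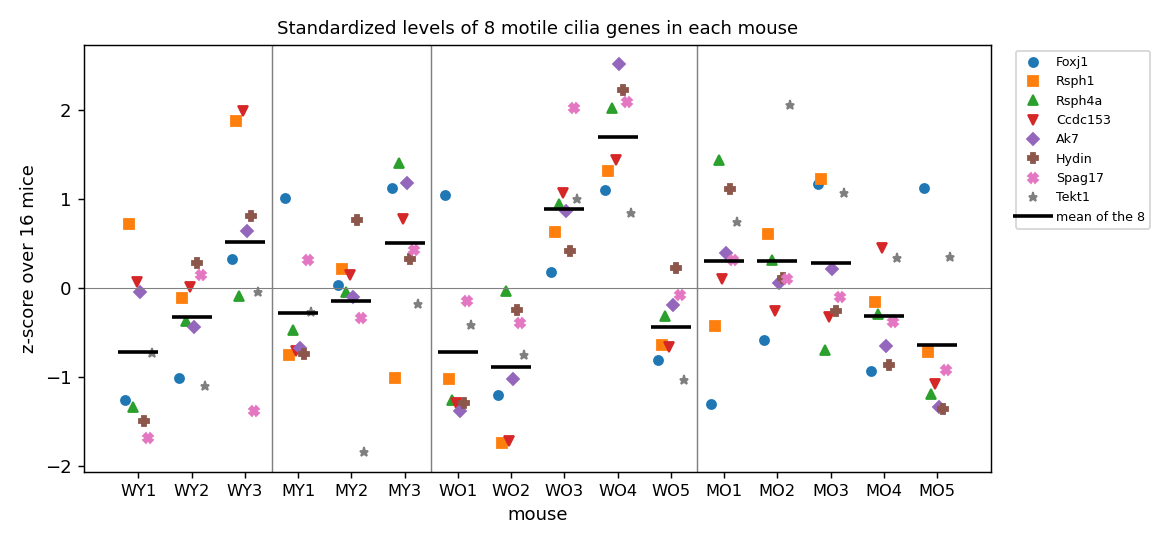
Standardized levels of the 8 axonemal and regulator members in each mouse: the vertical axis is the z-score of log2(1 + FPKM) over the 16 mice, symbols are genes, and black bars are the mean of the 8; vertical lines part WY, MY, WO and MO mice. WO4 (1.70) and WO3 (0.89) stand highest and WO2 (-0.89) lowest, all in the same group.

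The WO to MO comparison was also made within each batch. Within batch 1, 6 of the 8 were higher in the 3 MO mice than in the 3 WO mice, with Rsph1 at 0.29 and Ak7 at 0.12. Within batch 2, 1 of 8 (Tekt1) was higher in the 2 MO mice than in the 2 WO mice, with Rsph1 at -0.19 and Ak7 at -0.35. The sign differed between the batches for 5 of the 8. Of the batch 2 mice, WO4 alone had a mean z-score above 0, and with 2 mice a group no test was made there. Without WO4, the differences from WO to MO became 0.027 for Ak7 and 0.13 for Ccdc153.

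Correlations between the members were computed over the 16 mice for all 36 pairs, with adjusted p-values over the 36. All 28 pairs that leave out Mia had r above 0, with a median of 0.36, and 8 of the 36 pairs passed an adjusted p of 0.05. Of the 28, 4 had r below 0 without WO4 and 4 within batch 1, such as Rsph1 and Spag17 (-0.18 and -0.25), and none of these was among the 8. Rsph4a and Hydin had Pearson's r = 0.85 (permutation p = 5e-05, adjusted p = 0.0018) and Spearman's rho = 0.83 (permutation p = 0.0002, adjusted p = 0.00558). The r was 0.73 without MO1 and WO4, the 2 mice farthest from the median of the gene named first, and 0.78 in the 12 mice of batch 1. Ccdc153 and Ak7 had Pearson's r = 0.80 (permutation p = 0.00024, adjusted p = 0.00216) and Spearman's rho = 0.82 (permutation p = 0.00031, adjusted p = 0.00558), with r of 0.86 without WO2 and WY3, the 2 mice farthest from the median of the gene named first, and 0.84 in the 12 mice of batch 1. Rsph1 and Ccdc153 had Pearson's r = 0.74 (permutation p = 0.0011, adjusted p = 0.00762) and Spearman's rho = 0.66 (permutation p = 0.0064, adjusted p = 0.0395), with r of 0.52 without WO2 and WY3, the 2 mice farthest from the median of the gene named first, and 0.69 in the 12 mice of batch 1. Each kept its sign without these mice and within batch 1; batch 2 held too few mice for a value of its own. Foxj1 was in none of the 8 pairs: its r with the other 7 axonemal members lay between 0.018 (Hydin) and 0.27 (Spag17). Tekt1 and Mia were the only pair of the 8 that held either gene. Tekt1 and Mia had Pearson's r = 0.64 (permutation p = 0.0069, adjusted p = 0.0355) and Spearman's rho = 0.62 (permutation p = 0.0122, adjusted p = 0.0487), with r of 0.63 without MY2 and MO2, the 2 mice farthest from the median of the gene named first, and 0.70 in the 12 mice of batch 1. Mia was called higher in MO mice in both comparisons with them, and Tekt1 was called in neither. The r of the deviations of Tekt1 and Mia from the group means was 0.51.

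The genes most like the 8 members over the 16 mice, by Pearson's r with their mean z-score among the 13523 other genes with a mean of at least 1, were Fam216b (0.82), Fgf22 (0.79), Syt10 (0.78), Vwa5b1 (0.77), Mipol1 (0.76), Lrrc48 (0.75), Dnali1 (0.74), Cyb5rl (0.74), Wdr35 (0.73) and Eif4enif1 (0.73). Of these 10 genes, 3 (Lrrc48, Dnali1 and Wdr35) were in the lists of axonemal, regulator or intraflagellar transport genes, which hold 69 (0.51%) of the genes searched. By deviations from the group means, the 10 most alike were 2410004P03Rik (0.96), Syt10 (0.86), Fam216b (0.84), Mipol1 (0.82), Maml3 (0.81), Spag6 (0.81), Slc37a3 (0.81), Dnal1 (0.80), Fgf22 (0.80) and Tmem212 (0.80). None of these was in those lists, which do not hold the axonemal genes Spag6 and Dnal1, and Tmem212 was among the other ependymal genes. Of the 50 most alike, 9 (18%) by levels and 7 (14%) by deviations were in the lists. Without WO4 and WO3, the 2 mice with the score farthest from the median, r lay between 0.57 (Lrrc48) and 0.85 (Mipol1) for the first 10 and between 0.65 (Tmem212) and 0.94 (2410004P03Rik) for the second. These are descriptions of a search over many genes, with no p.

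The members lie apart in the genome. In the mm10 assembly with GENCODE M21 gene models, Foxj1 at chr11:116330704-116335399 and Tekt1 at chr11:72344722-72362442 share a chromosome, and the others are Rsph1 at chr17:31255019-31277383, Rsph4a at chr10:33905111-33916021, Ccdc153 at chr9:44240676-44247306, Ak7 at chr12:105705976-105782447, Hydin at chr8:110266977-110610253, Spag17 at chr3:99885406-100143322 and Mia at chr7:27179742-27181157. Hydin spans 343277 bases with 88 merged exons, and Mia 1416 bases with 3. On the opposite strand, exons of Gm26832 share 237 bases with Hydin, and those of Wdr3 and Spag17os share 820 and 516 bases with Spag17. The library kit keeps the strand, but whether the authors' quantification used it is not given in the sources used here, so the low values of Hydin and Spag17 may include such reads. Of these neighbours, Wdr3 was in the table, with a mean of 2.95, far above Spag17.

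The promoters of the members were searched for the letters of 3 motifs, on both strands of the promoter windows (RefSeq, GRCm38.p6), available for 6 of the 9 members (7 windows). Foxj1, Rsph1 and Rsph4a had no entry. GTTGCC, the arm of the X-box read by Rfx factors, was in the windows of 3 members (Hydin, Ccdc153 and Tekt1) and in 12.5% of all 32851 windows. A narrow form of the full X-box, GTNNCC and GGNAAC with 0 to 3 bases between them, was in no member window and in 2.34% of all windows. Second arms with A in place of the first G of GGNAAC were not searched for. The Hydin stretch below holds such an arm after GTTGCC, within that spacing, on the strand opposite to the gene. The search therefore cannot tell whether the members lack a full X-box of a wider form. TGTTTAC, a forkhead motif, was in the window of Ak7 and in 3.65% of all. Stretches that hold the matches, upstream of the start used in the promoter table, are printed 5′ to 3′ on the strand of the gene, with each motif in capitals (GGCAAC is GTTGCC on the other strand).
Hydin (chr8:110266907-110266976, plus strand, 70 to 1 bases before the RefSeq start): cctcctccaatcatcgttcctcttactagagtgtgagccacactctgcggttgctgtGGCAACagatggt
Ccdc153 (chr9:44240496-44240565, plus strand, 181 to 112 bases before the RefSeq start): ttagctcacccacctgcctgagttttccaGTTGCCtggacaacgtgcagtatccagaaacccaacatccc
Tekt1 (chr11:72361883-72361952, minus strand, 70 to 1 bases before the RefSeq start): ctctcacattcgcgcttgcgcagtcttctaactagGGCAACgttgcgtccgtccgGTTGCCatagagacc
Ak7 (chr12:105705823-105705892, plus strand, 159 to 90 bases before the RefSeq start): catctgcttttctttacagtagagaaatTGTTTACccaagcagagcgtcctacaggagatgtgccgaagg
The matches begin 13 bases before the RefSeq start in Hydin, 152 in Ccdc153, 131 in Ak7, and 35 and 15 in Tekt1. The RefSeq start of Tekt1 (72361882) lies 560 bases inside the gene as GENCODE draws it, whose first base is 72362442, so the stretch of Tekt1 is within that gene model; for the other 3 genes the starts differ by 0, 1 and 6 bases. They describe letters in these windows and show neither binding nor its absence.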

How the data were processed

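RNA was taken from whole spinal cords of 16 male mice and sequenced with a stranded mRNA kit. The authors trimmed reads (Trimmomatic), aligned them to mm10 (TopHat) and computed FPKM per gene (Cufflinks); they then removed genes at 0 in at least 8 of 16 mice, took log2(1 + FPKM) and adjusted the values for the 2 batches (ComBat) before they were deposited. Versions, the gene annotation and the strand setting are not given in the sources used here. No read counts are in the deposited table, the fragment totals listed in the paper were not used, and the counting error of low values was not computed. All 18167 genes and all 16 mice were used as given.

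Groups were compared with limma 3.58.1 in R 4.3.3 (lmFit and eBayes, two-sided), 1 fit for each pair of groups and 1 for the difference of age effects, (MO - MY) - (WO - WY). P-values were adjusted over all 18167 genes (Benjamini-Hochberg), and a gene was called if it changed 1.5-fold or more with an FDR no higher than 0.05. Batch 2 holds only old mice, so age and batch overlap in part; differences within batches were computed beside the pooled ones. The genes named are the 9 members, genes of the lists chosen from those called and from the 3 most abundant others of each axonemal list, and the 10 genes most like the members by each measure; Ak8, Tmem212, Ttr, Kl, Clic6, Prlr, Xist, Ddx3y, Col2a1, Col11a2 and the remaining names were chosen after their values were seen. Members and lists were chosen with earlier results of these data known. Correlations used 1e+05 permutations and Benjamini-Hochberg adjustment over the 36 pairs. Gene models were those of GENCODE M21 and promoters those of RefSeq. Tables and figures used Python 3.11.15, numpy 2.4.6, pandas 2.3.3 and matplotlib 3.10.9.

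Alternatives tried were a pseudocount of 0.1, a mean of at least 1, quantile normalization, 1 fit of all groups, batch 1 only, batch as a term, an intensity trend in eBayes, a block for the replicate number, and leaving out every mouse in turn; leaving out WO3 and MO5 together was chosen after seeing the data. The fits were tested on simulated data with known changes.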

Additional observations from a re-analysis of the deposited data

Results flagged for a closer look

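In groups of 5 mice, a gene was marked where 1 mouse lay far from the other 4 by Dixon's test. None of the 18 tests of members marked a mouse. Among the 144 tests of all genes looked at, 7 did: Rfx2 in MO1 (1.73), Cfap69 in MO3 (2.80), Nme7 in WO2 (2.67), Cfap126 in MO3 (2.72), Ttr in WO3 (4.42), and Xist (3.21) and Ddx3y (1.95) in MO5, all as log2(1 + FPKM). Chance flags about 1 in 20 groups of genes chosen without regard to their values. Ttr, Xist and Ddx3y were chosen after their values were seen, so their marks restate that choice and are no test.

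A second set was marked because the change with age differed between the genotypes by limma, past an FDR of 0.05 and 1.5-fold, as it did for 5.61% of all genes. No member was among these. Axonemal genes among them were Cfap126 (0.66) and Meig1 (0.74). From the list of other ependymal genes, Rarres2 (0.64), Nnat (1.09), Vim (2.73) and Nes (1.03) were marked. Those of the astrocyte list were Gfap (1.80), Aldh1l1 (0.76) and Aqp4 (1.09). Those of the microglial list were Cx3cr1 (1.10), Csf1r (1.15), Aif1 (2.09) and Itgam (0.87). Nefl (-0.88) of the neuronal list and Acan (-0.73) of the cartilage list were marked as well. All these values are log2 differences of age effects. Calls of Cfap126, Meig1 and Rarres2 were lost in 3, 13 and 16 of 23 alternatives, and that of Itgam in batch 1 only (0.82). Explanations were not tested.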

How the results depend on the processing

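Of 764 values of the log2 fold change of members under alternatives, 691 kept their direction and their side of the thresholds, 18 were no longer past them, 6 passed them and 49 changed sign. Of 870 values of other named genes, 803 kept both and 67 were no longer past the thresholds.

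With a pseudocount of 0.1, the genes called numbered 1483 from MY to MO, 1529 from WO to MO and 1548 in the difference of age effects, against 890, 836 and 1020. From MY to MO, 0 members were called with quantile normalization, with 1 fit of all groups and without WO3 and MO5 together, an alternative chosen after seeing the data. Between WO and MO mice, 0 members were called in batch 1 only. In the difference of age effects, 1 member (Mia) was called with the replicate block and without WO3 and MO5 together. From WY to WO, 73 genes were called in batch 1 only and 27 without WO3 and MO5 together, against 46. From WY to MY, 2 genes were called with a mean of at least 1, 4 with 1 fit of all groups and 2 with an intensity trend, against 1. The cause was not tested.

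In batch 1 only, the log2 fold change from MY to MO was 0.0076 for Rsph4a, 0.014 for Ak7 and 0.013 for Hydin. From WO to MO it was 0.061 for Rsph4a, 0.12 for Ak7 and 0.046 for Hydin, and from WY to WO -0.092 for Ak7 and -0.016 for Hydin. In the difference of age effects it was 0.11 for Ak7 and 0.029 for Hydin. Ccdc153 from WO to MO was -0.073 with quantile normalization, which moved the median of all genes to -0.0293. Without WO3 and MO5 together, Rsph4a was 0.012 and Ak7 0.0034 from WO to MO, and Ak7 -0.012 from WY to WO. All of these had the other sign in the values reported; the cause was not tested.

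Leaving out each mouse in turn gave 805 to 1011 genes from MY to MO, 786 to 924 from WO to MO, 7 to 64 from WY to WO (7 without WY3, 23 without WY1, 26 without WO2, 27 without WO3, 30 without WY2 and 64 without WO4, against 46), 1 to 5 from WY to MY and 808 to 1292 in the difference of age effects. Members called ranged from 0 to 1 from MY to MO, from WO to MO and in the difference of age effects. Fold changes that crossed 0 ranged, from MY to MO, from -0.10 to 0.023 for Rsph4a, -0.21 to 0.018 for Ccdc153 and -0.13 to 0.020 for Ak7. Between WO and MO mice they ranged from -0.055 to 0.015 for Foxj1, -0.10 to 0.011 for Rsph4a, -0.11 to 0.13 for Ccdc153 and -0.13 to 0.027 for Ak7. From WY to WO they ranged from -0.078 to 0.079 for Ak7 and -0.019 to 0.058 for Hydin, and from WY to MY from -0.30 to 0.010 for Ccdc153, -0.072 to 0.078 for Ak7, -0.028 to 0.048 for Hydin, -0.13 to 0.12 for Tekt1 and -0.36 to 0.0065 for Mia. In the difference of age effects they ranged from -0.0069 to 0.32 for Ccdc153 and -0.15 to 0.014 for Ak7.

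Replicate block. The labels number the mice of each group but state no pairing. Same-number mice had profiles with r of 0.177, 0.0853 and 0.151 from MY to MO and above 0.1 in 0 of 5 numbers from WO to MO, 2 of 3 from WY to WO and 0 of 3 from WY to MY. Mice correlated best with the mouse of their own number in 6 of 6 cases from MY to MO, 4 of 6 from WY to WO, 1 of 10 from WO to MO and 0 of 6 from WY to MY. The numbers were not used as pairs in the values reported, and the block was fitted as an alternative. With the number as a block, 1108, 840, 63, 1 and 1008 genes were called in the 5 comparisons, Rsph4a was 0.0076, Ak7 0.014 and Hydin 0.013 from MY to MO, and Ak7 -0.092 and Hydin -0.016 from WY to WO.

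Limits: batch 1 only gives the same fit from WY to MY, where all mice are of batch 1, and was not run there; batch as a term was run only from WO to MO, where both groups hold both batches. The single fit of all groups is already the fit of the difference of age effects. Groups hold 3 or 5 mice. The counting error of Hydin and Spag17, at mean FPKM of 0.250 and 0.132, was not computed. Whether the authors' batch adjustment used covariates is not stated, and age and batch overlap in part among old mice. MO5 and WO3 were kept in the values reported.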
